A study of Mus musculus with 16 samples.

Results

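The clustered histone genes are the genes that encode the linker histone H1 and the core histones H2A, H2B, H3 and H4, taken here as all genes whose mouse symbol begins with H1f, H2ac, H2bc, H3c or H4c followed by a digit. Of the 21959 genes listed with counts, 73 were members. They comprised 11 H1, 18 H2A, 19 H2B, 12 H3 and 13 H4 genes. In the GRCm39 annotation 54 of them lie on chromosome 13, 10 on chromosome 3, 3 on chromosome 11 and 6 elsewhere. The symbol rule also takes in linker histones that lie outside the clusters and are made throughout the cell cycle, H1f0 and H1f10, and germ cell linker histones such as H1f7 and H1f8.

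RNA was sequenced from liver metastases of 16 C57BL/6 mice, male and 6 weeks old, in which MC38 cells, a mouse colon adenocarcinoma line, had been injected into the spleen. All mice carried the same tumor line. The 4 groups of 4 mice each received PBS (control), SB525334, an inhibitor of the TGF-β receptor ALK5 given by gavage at 20 mg/kg, KN046, an antibody against PD-L1 and CTLA4 injected at 10 mg/kg, or SB525334 and KN046 together (combination). The counted reads in a mouse ran from 20042850 to 21802474 in control, 21584449 to 23877131 in SB525334, 19241084 to 19893033 in KN046 and 18368994 to 20921926 in combination mice, so every SB525334 library was larger than every KN046 and combination library. The tissue was bulk, so a smaller share of one kind of cell and less RNA per cell cannot be told apart.

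Most genes in these clusters are transcribed in S phase, when newly copied DNA is packaged into nucleosomes. Their messages end in a conserved 3′ stem-loop, bound by the stem-loop binding protein SLBP, in place of a poly(A) tail. Replacement histones such as H1f0 are instead polyadenylated and accumulate in cells that leave the cycle. Differentiated and tumor cells can also make polyadenylated forms of some clustered histone genes.

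The question taken up here was whether the higher level of H3c10 under combination treatment was shared by the other histone genes. H3c10, one of the genes that encode canonical H3, was drawn in a heat map of the study made from these same libraries, so its selection was not independent of its values. No member passed the test between the combination and control groups in the edgeR fit over all 16 mice. In other fits a few were called. H1f2 and H1f0 were called when the 8 mice of these groups were fitted alone. H4c9 was called by DESeq2, with library totals as the scaling and without combination mouse 1. With no filter on low counts H2bc13 was called. All these fits take the 4 control mice as independent, although their libraries resembled one another in pairs. The combination group nevertheless lay above control for 29 of the 33 members with enough counts to be tested, against 51.7% of all genes. Without H3c10 this was 28 of 32. The KN046 group lay above control for 25 of the 33, against 46.7% of all genes. The combination lay above KN046 for 18, against 50.1%. Between combination and control, the linker histone genes H1f2, H1f3, H1f4 and H1f5 came next to H3c10 in size of difference. In the KN046 group H1f5 was higher than control, a call that was lost when any of 6 of the 8 mice was left out, and H2bc21 was higher in the combination group than in the KN046 group.

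The stem-loop is what sets most of these messages apart from other mRNA, so its sequence was read from the genome. The search required a paired 6-base stem that opened with GG and closed with CC. Its 4-base loop had to begin with TT and hold no G. Such a match was found within 300 bases past the stop codon of 64 of the 73 members, at a distance of 22 to 59 bases. There were 6 distinct stem-loops. The sequences below are on the strand of the gene, with the stem-loop in capitals and 5 bases on each side in lower case. They are shown for H3c10 and for 1 member with each of the other 5 forms, so that the differing bases can be seen. The GG, TT and CC were set by the search, so their presence in every form is not a result.
H3c10: tcaaaGGCTCTTTTCAGAGCCaccca
H2bc13: tcaaaGGCTCTTTTAAGAGCCaccca
H4c12: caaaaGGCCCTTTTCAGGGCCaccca
H4c9: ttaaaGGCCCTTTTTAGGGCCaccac
H4c11: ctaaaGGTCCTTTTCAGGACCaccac
H2ac20: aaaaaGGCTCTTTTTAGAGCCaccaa
In GRCm39 these sites lie past the coding sequence at chr13:21902260-21902285 on the plus strand for H3c10, chr13:21899883-21899908 on the minus strand for H2bc13, chr13:21934315-21934340 (minus) for H4c12, chr13:22225131-22225156 (minus) for H4c9, chr13:21919602-21919627 (plus) for H4c11 and chr3:96127729-96127754 (minus) for H2ac20. The form of H3c10 was shared by 42 members, among them H1f2, H1f5, H2bc4 and H2bc8. The form of H2bc13 was found in 9 members, that of H4c12 in 8, that of H4c9 in 2, that of H4c11 in 2 and that of H2ac20 in 1. The forms of H4c12, H4c9 and H4c11 occurred only in H4 genes. The 9 members in which the search found no stem-loop were H1f0, H1f7, H1f8, H1f9, H1f10, H2ac22, H2bc21, H3c8 and H4c1, and no match says only that these letters were not in the window searched.

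H3c10 lies on the plus strand of chromosome 13 from 21901829 to 21902239, and its annotated 411 bases are all coding. Its stem-loop starts 26 bases past the stop codon, outside the annotated exon, so that a read lying wholly past the stop codon falls outside the annotated gene. Of its 100-base exon windows, 92.0% also occurred elsewhere in the genome without a mismatch. A read of that length lying inside the exon could thus seldom be given to H3c10 alone. Longer or paired reads, and reads that reach past the exon, are not covered by this measure. Over all members, 24 had more than 50% of their windows elsewhere, 5 had all of them elsewhere and 14 had none. The counter's handling of reads with several alignments is not given in the sources used here, so values of near-identical members are uncertain.

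Levels spanned a wide range. H1f0, the replacement linker histone of resting and differentiated cells, held 71.7% of the summed level of all members, in CPM, the counts of a gene scaled to the size of its library. H1f2, a replication-dependent linker histone, held 13.5%, H2bc4 5.27%, H4c9 2.89%, H2bc21 2.15% and H2bc8 0.708%. Per kilobase of annotated exon and averaged over the 16 mice, the level was 360 CPM for H1f0, 89.1 for H1f2, 41.0 for H4c9, 17.6 for H2bc4, 11.8 for H2bc8, 8.49 for H2bc21, 5.28 for H1f10 and 0.982 for H3c10. Of the 33 tested members, 15 reached the filter's level of 0.495 CPM in all 16 mice and 7 in fewer than 8 of them, and no member passed through mice of 1 group alone.

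Of the 40 members that were not tested for want of counts, 30 had at least 1 count and 10 had 0 in every mouse. The highest count of any untested member in any mouse was 20, and these 40 genes together held 0.328% of the members' counts. The genes with 0 counts were H4c2, H2bc1, H2ac1, H1f7, H2ac21, H2ac19, H2ac18, H3c14, H3c13 and H2bc18, of which 3 had more than 50% of their windows elsewhere. All of them but H2bc1 and H1f7 have annotated exons that overlap those of another gene. Such overlap was present in 35 members in all. How reads in such overlaps were counted is not given in the sources used here. The part of exon overlap in these counts was not tested. A count of 0 allows up to 3 counts in a library and is not a measure of absence.

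A poly(A) signal (AATAAA or ATTAAA within 40 bases of an annotated transcript end) was present in 24 members, which held 96.9% of the members' counts. The 49 members without one held 3.06%. Of the 336089 counts over all members, H1f0 held 241643 and H1f2 44445, both with the signal. H1f0, H1f2, H2bc4, H4c9, H2bc21 and H1f10 were among the genes with the signal, and H3c10, H1f5, H2bc8 and H4c12 were among those without. The labels name an mRNA library and do not say how mRNA was selected, and the part of library preparation in these levels was not tested.

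**Figure D1:**
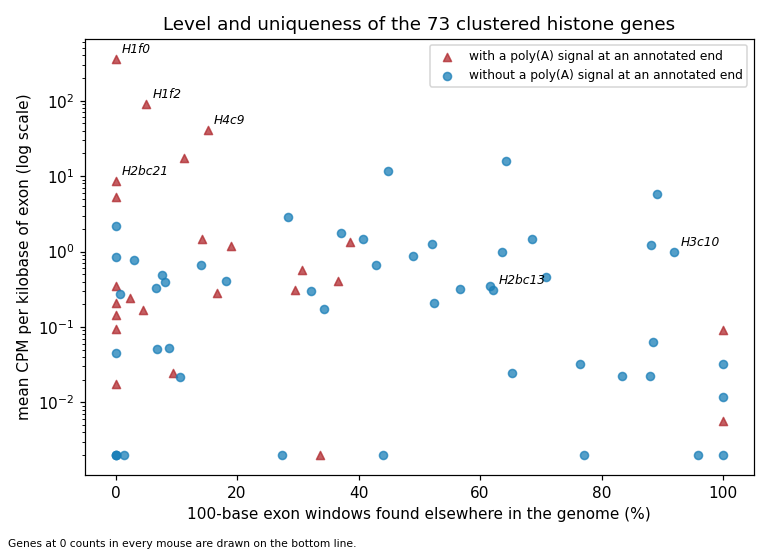
Mean level of each of the 73 members over 16 mice, in CPM per kilobase of exon on a log axis, against the share of its 100-base exon windows that occur elsewhere in the genome. Triangles are genes with a poly(A) signal at an annotated end; H3c10 stands far to the right at 92.0%, and genes at 0 counts lie on the bottom line.

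H3c10 had 3, 2, 8 and 8 counts in control mice 1 to 4, and 12, 9, 16 and 13 counts in combination mice 1 to 4. It had 5, 14, 4 and 6 counts in the SB525334 mice and 11, 5, 9 and 5 in the KN046 mice. Every combination mouse exceeded every control mouse, and SB525334 mouse 2 and KN046 mice 1 and 3 lay above the lowest combination mouse once scaled to CPM. The mean level was 0.262 ± 0.173 CPM (SD, n = 4) in control, 0.303 ± 0.173 in SB525334, 0.398 ± 0.173 in KN046 and 0.650 ± 0.159 in combination mice.

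Between combination and control, the log2 fold change of H3c10 was 1.31 (SE 0.52, edgeR adjusted p = 0.132), the largest of the 33 tested members. Its 95% interval ran from 0.18 to 2.44. The log2 fold change was 0.24 for SB525334 against control (edgeR adjusted p = 0.876) and 0.61 for KN046 against control (edgeR adjusted p = 0.526). With 1 mouse left out, the first ran from -0.22 without SB525334 mouse 2 to 0.56 without control mouse 4. The second ran from 0.33 without control mouse 2 to 0.91 without control mouse 4. The 3 comparisons with control share the control mice. H3c10 reached that filter level in 3 combination mice, 1 SB525334 mouse, 1 KN046 mouse and no control mouse, on unscaled library totals, so it entered the test mainly through the group where it was highest.

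**Figure D2:**
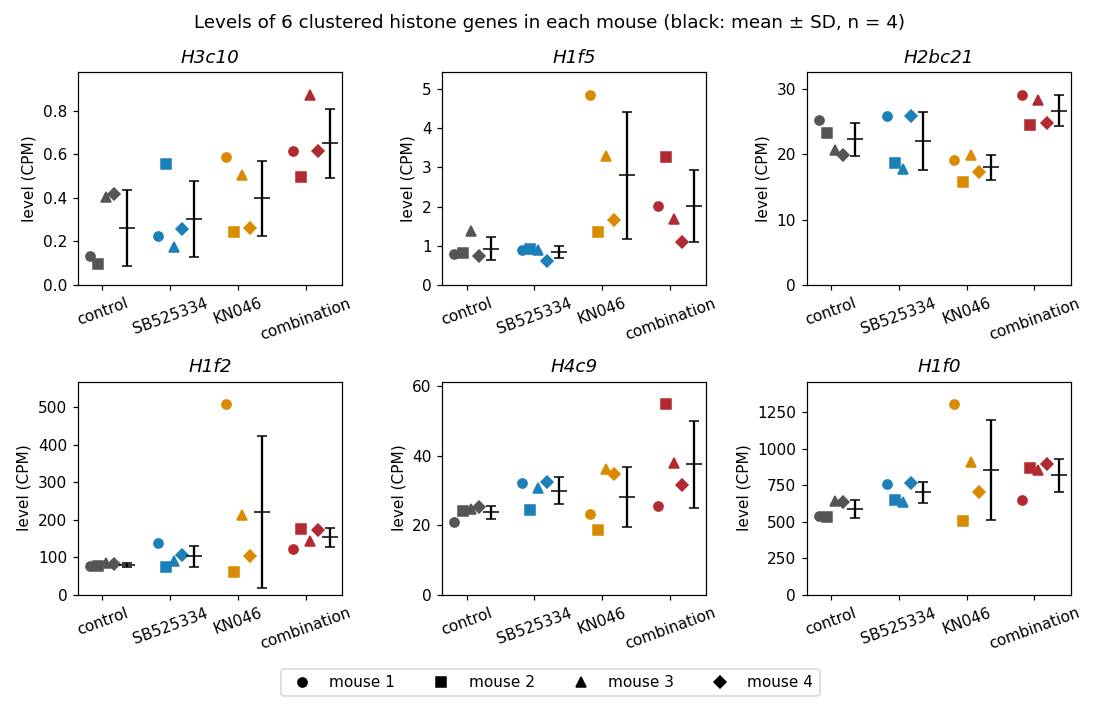
Level in CPM of 6 members in each mouse by group, with marker shapes for mice 1 to 4 and a black bar for the mean ± SD (n = 4). H3c10 is higher in all 4 combination mice than in all 4 control mice, and KN046 mouse 1 stands above the other KN046 mice for H1f5, H1f2 and H1f0.

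The members nearest to H3c10 on chromosome 13 are H2bc13 and H2ac13 on one side and H2bc14 and H4c11 on the other. H2bc13, a gene of core histone H2B, had 0 counts in all 4 control mice, 5, 6, 2 and 3 in the combination mice, 2, 1, 4 and 8 in the KN046 mice and 2, 0, 3 and 1 in the SB525334 mice. With the control group set at a floor of 3 counts, its summed level was 5.73-fold higher in the combination group and 5.42-fold higher in the KN046 group. The floor covers the counting error of the control 0 only. The counting error of the 16 combination and 15 KN046 counts is not covered, so these values are not lower limits.

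H2bc13 did not reach the filter and 62.1% of its windows occur elsewhere. With no filter on low counts it was the 1 member called between the combination and control groups (edgeR adjusted p = 0.0161), where 0.966% of 17902 genes were called higher, and it was not called between KN046 and control (edgeR adjusted p = 0.0502). H2ac13, an H2A gene, had at most 2 counts in any mouse. H2bc14 had 4, 0, 2 and 5 counts in control and 0, 4, 8 and 3 in combination mice, which overlap. H4c11, an H4 gene, had 24, 29, 10 and 24 counts in control and 20, 19, 15 and 13 in combination mice, with a log2 fold change of -0.26 (SE 0.44, edgeR adjusted p = 0.773).

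Between the combination and control groups, edgeR fitted over all 16 mice called 0 of the 33 tested members in either direction, where 1.37% of all 13968 genes tested were called higher and 9.74% lower. DESeq2 called 1 member, H4c9, and limma on the deposited normalized values called 0. The shares of all genes called by DESeq2 and limma are not given here, so these counts cannot be set against a background. With the 8 mice of these groups fitted alone, edgeR called 2 of the 28 members then tested, H1f2 and H1f0, both higher, where 1.39% of 13580 genes were called higher. At an unadjusted p under 0.05, 5 members were higher (H3c10, H1f5, H4c9, H1f0 and H1f2) and none lower, against 8% of all genes higher and 14.1% lower. For 5 members every combination mouse exceeded every control mouse (H3c10, H4c9, H1f3, H1f2 and H1f0), against 5.32% of all genes. H3c10, which was singled out from these same libraries, is among both of these sets of 5, and 4 remain in each without it.

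The median log2 fold change of the tested members was 0.46, and 29 of 33 were above 0. Over all genes tested the median was 0.01 and 51.7% were above 0. Among the 63 members with at least 1 count, fitted with no filter, 48 were above 0 and the median was 0.43, against 48.3% of all genes and a median of 0.00. By class, all 6 tested H1, all 8 H2B and all 6 H3 genes were above 0, with 3 of 4 H2A and 6 of 9 H4 genes. The medians by class were 0.88 for H1, 0.71 for H3, 0.41 for H2B, 0.33 for H2A and 0.27 for H4. Genes measured in the same mice are not independent replicates, and these values are descriptions. Without H3c10, 28 of 32 members were above 0 with a median of 0.45, and the median of the other 5 H3 genes was 0.62.

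Linker histone genes stood next after H3c10. H1f5 had 18, 17, 27 and 14 counts in control and 39, 59, 31 and 23 in combination mice, with a log2 fold change of 1.11 (SE 0.42, edgeR adjusted p = 0.115). Combination mouse 4 lay within the control range of H1f5 and the other 3 above it. H1f2 had 1726, 1601, 1663 and 1585 counts in control and 2382, 3184, 2601 and 3679 in combination mice, with a log2 fold change of 0.95 (SE 0.42, edgeR adjusted p = 0.198). The lowest combination mouse of H1f2 lay above the highest control mouse. With the 8 mice alone, the log2 fold change of H1f2 was 0.94 and passed the threshold (edgeR adjusted p = 0.000259). That fit takes the 4 control mice as independent, though H1f2 stood at 75.5 and 75.8 CPM in mice 1 and 2. Control mice 3 and 4 stood at 84.3 and 82.8 CPM. The control libraries were alike in these pairs, so the spread may be too small in both fits. H1f2 was not called with the pairs merged. Over the other alternatives the edgeR, DESeq2 or limma adjusted p of H1f2 lay between 0.133 and 0.498.

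H1f0 had 12260, 11240, 12659 and 12149 counts in control and 12663, 15786, 15679 and 19015 in combination mice, or 532 to 642 CPM against 650 to 896 CPM. Its log2 fold change was 0.48 (SE 0.21, edgeR adjusted p = 0.176), and it passed the threshold with the 8 mice alone (edgeR adjusted p = 0.04004). Its control levels lay in the same pairs, at 536 and 532 CPM in mice 1 and 2 and 642 and 635 CPM in mice 3 and 4. Over the other alternatives its adjusted p lay between 0.0790 and 0.465. H1f10, the other replacement linker histone, had 132, 101, 122 and 118 counts in control and 90, 164, 97 and 159 in combination mice, and its levels overlapped between the groups (log2 fold change 0.21, SE 0.23, edgeR adjusted p = 0.645). These log2 fold changes were smaller than those of the replication-dependent H1f2 and H1f5, and the difference between the kinds of gene was not tested.

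H4c9, the H4 gene with the most counts, had 479, 506, 484 and 482 counts in control and 498, 993, 696 and 670 in combination mice. The levels did not overlap, with combination mouse 1 the lowest at 25.6 CPM against 25.2 CPM in the highest control mouse. The log2 fold change was 0.66 (SE 0.22, edgeR adjusted p = 0.0653). H4c9 passed the threshold without combination mouse 1 (edgeR adjusted p = 0.0138), with library totals as the scaling (edgeR adjusted p = 0.0440) and in DESeq2 (adjusted p = 0.0308). Over the other alternatives its adjusted p lay between 0.0574 and 0.285.

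The other members of high level moved less. H2bc4 was at 48.4 ± 3.04 CPM (SD, n = 4) in control and 58.5 ± 8.01 CPM in combination mice (log2 fold change 0.28, edgeR adjusted p = 0.573), and H2bc8 at 5.99 ± 1.63 and 7.64 ± 1.499 CPM (log2 fold change 0.35, edgeR adjusted p = 0.702). At the lower end stood H2ac25 at -0.49, H4c12 at -0.36 and H4c11 at -0.26 on the log2 scale. H4c12 had 169, 196, 68 and 63 counts in control and 75, 109, 86 and 78 in combination mice. Control mice 1 and 2 were above all combination mice for H4c12, and control mice 3 and 4 below them.

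**Figure D3:**
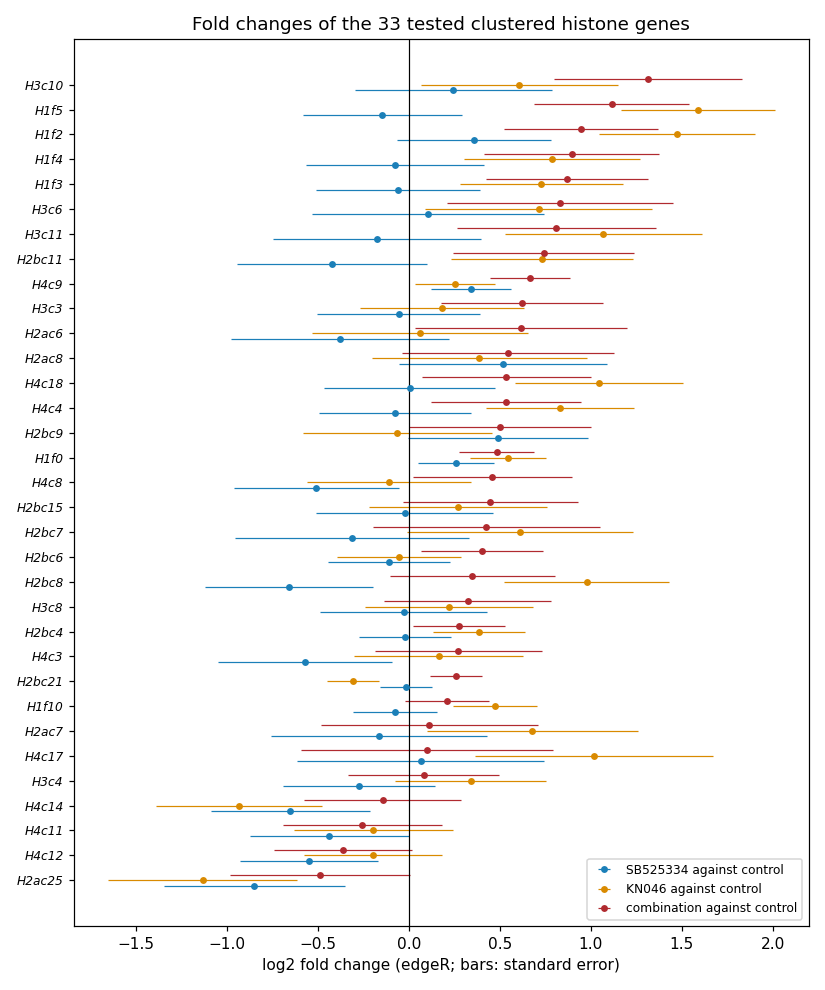
Log2 fold change of each of the 33 tested members against control, with bars for the standard error, for SB525334, KN046 and combination. Points for the combination lie above 0 for 29 members, with H3c10 at the top at 1.31 and H2ac25 at the bottom at -0.49.

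Between the KN046 and control groups, edgeR called 1 of the 33 members, H1f5, where 1.6% of all genes were called higher and 2.4% lower. H1f5 had 91, 28, 59 and 32 counts in the KN046 mice against 14 to 27 in control. KN046 mice 1 and 3 were far above control, while KN046 mouse 2 overlapped control in CPM, at 1.36 against 1.37 in control mouse 3. The log2 fold change was 1.59 (SE 0.42, edgeR adjusted p = 0.046).

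That call was lost without control mouse 1, 2, 3 or 4 (edgeR adjusted p = 0.0953, 0.0969, 0.0696 and 0.124), without KN046 mouse 1 (0.181) and without KN046 mouse 3 (0.100), and it held without KN046 mouse 2 (0.0105) or 4 (0.0395). Pairs of control libraries, mice 1 and 2 and mice 3 and 4, resembled one another more than any other pair within a group did, but differed by more than sampling noise. With each of these pairs merged the edgeR adjusted p of H1f5 was 0.266.

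H1f2 had 9538, 1232, 3787 and 2002 counts in the KN046 mice. Mouse 1 was the highest and mouse 2 the lowest of the 16 mice, and the log2 fold change of 1.47 did not pass the test (SE 0.43, edgeR adjusted p = 0.0616). H3c11, another canonical H3 gene, had 13, 5, 16 and 32 counts in the KN046 mice and 3, 19, 5 and 7 in control (log2 fold change 1.07, SE 0.54, edgeR adjusted p = 0.247). H2bc8 spread more widely, with 372, 41, 312 and 155 counts in the KN046 mice against 180, 144, 95 and 85 in control.

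At the other end, H2ac25 had 4, 9, 6 and 4 counts in the KN046 mice and 12, 17, 15 and 11 in control, with no overlap (log2 fold change -1.14, SE 0.52, edgeR adjusted p = 0.204). H2ac25 and H1f10 were the 2 members whose KN046 and control mice did not overlap, 1 lower and 1 higher, against 6.65% of all genes lower and 4.94% higher. H4c14 was at -0.93 and H2bc21 at -0.31 on the log2 scale, neither past the test (edgeR adjusted p = 0.229 and 0.209). The exons of H2ac25 overlap those of Trim17 and Gm56433, and whether counting used strand is not given in the sources used here.

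The median log2 fold change between KN046 and control was 0.39 over the tested members, with 25 of 33 above 0, against -0.03 and 46.7% over all genes. At an unadjusted p under 0.05, 5 members were higher and 2 lower, against 10.6% and 12.5% of all genes. The median was 0.19 without KN046 mouse 3 and 0.62 without KN046 mouse 2. The summed level of all members ran from 655 to 2035 CPM over the 4 KN046 mice, against 749 to 855 CPM in control.

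Between the SB525334 and control groups, edgeR called 0 members, where 0.394% of all genes were called higher and 9.22% lower. No member reached an unadjusted p under 0.05, against 4.07% of all genes higher and 14.9% lower, and DESeq2 and limma also called 0. The median log2 fold change was -0.08, with 9 of 33 members above 0, against 0.00 and 50.1% over all genes. The highest values were 0.52 for H2ac8, 0.49 for H2bc9 and 0.36 for H1f2, and the lowest were -0.85 for H2ac25, -0.66 for H2bc8 and -0.65 for H4c14. No member had SB525334 mice that were all above or all below the control mice, against 5% and 13.3% of all genes.

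**Figure D4:**
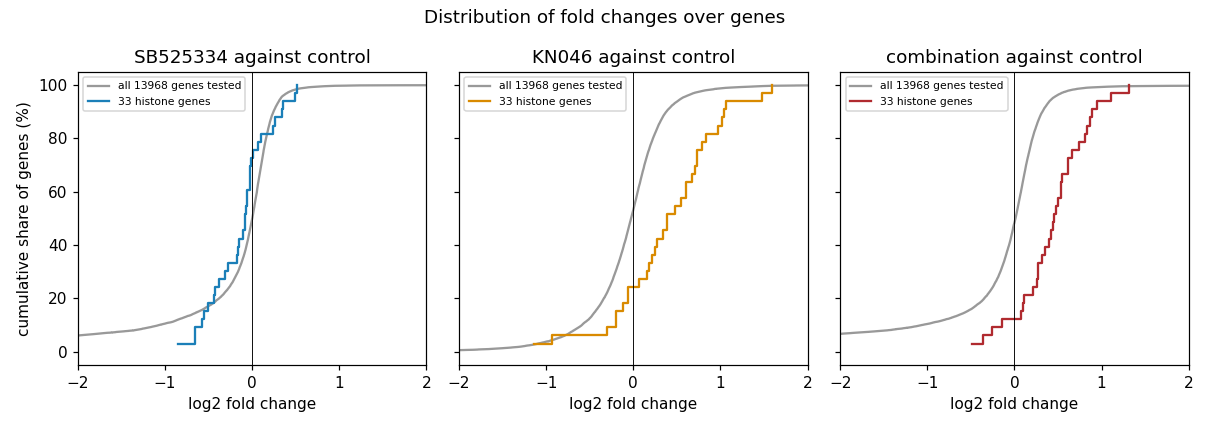
Cumulative share of genes (%) against log2 fold change for each treatment against control, for the 33 tested members (coloured steps) and all 13968 genes tested (grey). The members' curve lies to the right of the grey curve for KN046 and combination over most of its length, with medians of 0.39 and 0.46, and its median for SB525334 is -0.08.

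Between the combination and SB525334 groups, edgeR called 0 members, where 0.544% of all genes were called higher and 3.03% lower. DESeq2 and limma also called 0. All 33 tested members were above 0, with a median log2 fold change of 0.51, against 51.9% of all genes and a median of 0.01. At an unadjusted p under 0.05, 5 members were higher (H1f5, H2bc11, H2bc8, H3c10 and H4c8) and none lower, against 3.49% of all genes higher and 5.69% lower. H1f5 had 20, 23, 21 and 14 counts in the SB525334 mice, all below the combination mice in CPM, and its log2 fold change was 1.26 (SE 0.42, edgeR adjusted p = 0.167). H3c10 was at 1.07 (SE 0.50, edgeR adjusted p = 0.517). There were 3 members with no overlap between these groups (H1f5, H3c11 and H2bc8), against 2.43% of all genes.

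Between the combination and KN046 groups, 1 member was called, H2bc21, where 9.89% of all genes were called higher and 14.5% lower. H2bc21, an H2B gene on chromosome 3 in which no stem-loop was found, had 578, 492, 407 and 381 counts in control mice and 573, 467, 413 and 602 in SB525334 mice. It had 358, 323, 357 and 334 counts in the KN046 mice and 567, 444, 518 and 526 in the combination mice. In CPM all combination mice, at 24.5 to 29.1, were above all KN046 mice, at 15.7 to 20.0, and the control mice lay between and overlapped both.

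The log2 fold change of H2bc21 was 0.57 (SE 0.14, edgeR adjusted p = 0.00906), and the call held without any 1 mouse of the 2 groups (edgeR adjusted p from 0.0108 to 0.0265). H2bc21 was not called against control in either group, at 0.26 for the combination (edgeR adjusted p = 0.302) and -0.31 for KN046 (edgeR adjusted p = 0.209). None of its windows occurs elsewhere. The other member without overlap between the combination and KN046 groups was H4c14, also on chromosome 3, so that 2 members were higher without overlap against 7.9% of all genes. H3c10 was at 0.71 (SE 0.50, edgeR adjusted p = 0.305). The median was 0.10, with 18 of 33 members above 0, against 0.00 and 50.1% over all genes. Its sign was not stable, at -0.17 without KN046 mouse 2, -0.11 without combination mouse 2 and -0.08 among genes whose mean level reached 1 CPM.

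The interaction asks whether the effect of SB525334 differed with and without KN046. No member was called by edgeR, DESeq2 or limma, where edgeR called 1.73% of all genes higher and 2.55% lower. At an unadjusted p under 0.05, 2 members had a positive interaction, H2bc21 and H4c14, and none a negative one, against 7.89% and 8.73% of all genes. For H3c10 the interaction was 0.46 on the log2 scale (edgeR adjusted p = 0.794), and ran from 0.16 without control mouse 4 to 0.92 without SB525334 mouse 2.

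The study's own cut for changed genes was an unadjusted p under 0.05 with a fold change over 2. By that rule applied to the edgeR fit, H3c10 and H1f5 were higher in the combination group than in control, against 0.544% of all genes. Between KN046 and control H1f5, H1f2 and H4c18 were higher and H2ac25 lower, against 0.945% and 3.14% of all genes. Between combination and SB525334 H1f5, H2bc11, H2bc8 and H3c10 were higher, against 1.48% of all genes. No member was higher by that rule between SB525334 and control, where 0.129% of all genes were, or between combination and KN046, where 2.44% were.

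**Figure D5:**
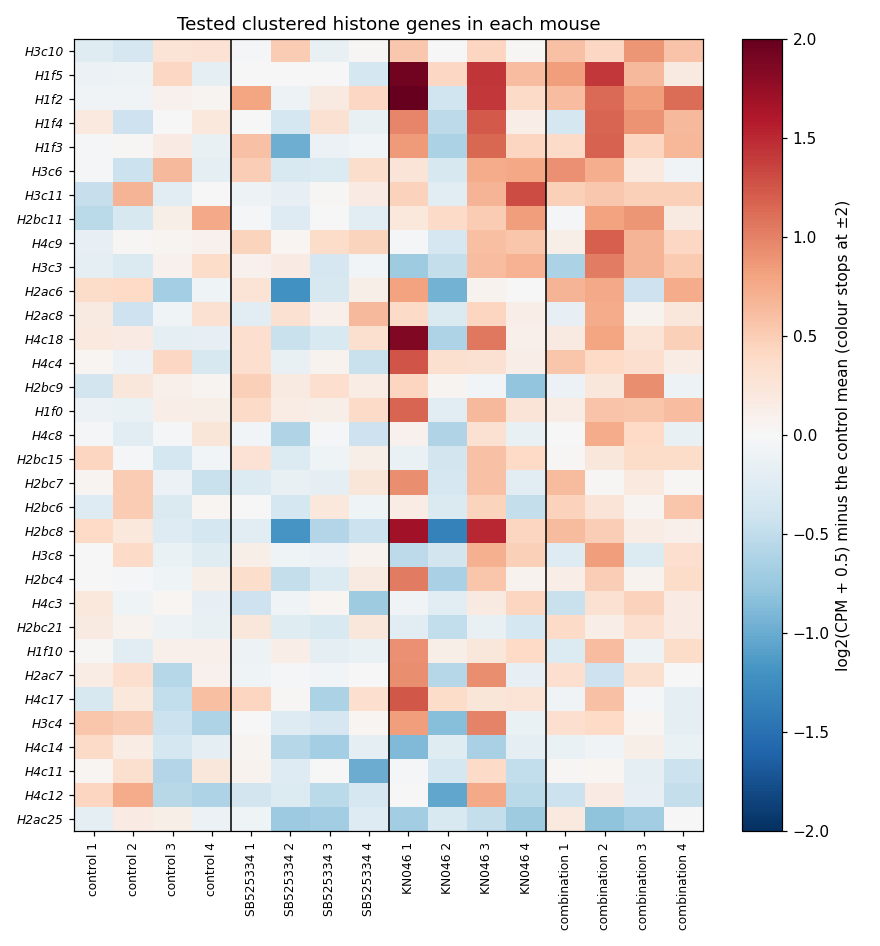
Level of each tested member in each of the 16 mice as log2(CPM + 0.5) minus the mean of the control mice, ordered by the combination against control difference, with red for higher and blue for lower. Of the 33 members, 23 and 29 lie above the control mean in KN046 mice 1 and 3, 6 in KN046 mouse 2, and 21 to 30 in the combination mice.

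Summed over all 73 members, the level was 802 ± 59.6 CPM (SD, n = 4) in control, 938 ± 118 in SB525334, 1244 ± 595 in KN046 and 1147 ± 153 in combination mice. H1f0 dominated this sum. Without H1f0 and H1f10 it was 210 ± 3.69, 231 ± 52.0, 381 ± 250 and 322 ± 46.7 CPM. The lowest combination mouse stood at 272 CPM and the highest control mouse at 214 CPM, so these did not overlap.

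The core histone genes, without any linker gene, summed to 127 ± 7.52 CPM in control, 125 ± 24.6 in SB525334, 152 ± 53.0 in KN046 and 162 ± 22.7 in combination mice. The control maximum was 133 CPM and the combination minimum 145 CPM. By class the combination and control means were 99.3 and 81.3 CPM for H2B, 49.9 and 35.7 for H4, 9.45 and 7.15 for H3 and 3.33 and 2.89 for H2A. H2A overlapped between the groups, from 1.97 to 4.01 CPM in the combination and 1.93 to 3.37 in control. H4 overlapped as well, from 35.9 to 71.3 CPM in the combination and 33.0 to 39.8 in control. The H2B and H3 sums did not overlap. Every tested H2A gene has annotated exons that overlap those of another gene. The part of this in the low H2A sum was not tested.

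The tested members were also divided by features that the symbol does not use. The median log2 fold change between combination and control was 0.28 over the 13 tested members with a poly(A) signal and 0.53 over the 20 without. It was 0.45 over the 7 tested members with more than 50% of windows elsewhere and 0.47 over the other 26. In the 4 tested members with no stem-loop found it was 0.29, and in the 29 with one 0.50.

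Over the 16 mice, the members whose log2 levels followed H3c10 most closely were H1f0 (Pearson r = 0.624), H1f5 (0.532) and H1f2 (0.529). These points share libraries, scaling and the 4 groups, and the low counts of H3c10 limit any such value. The values of the remaining tested members ran from -0.27 to 0.50.

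Histone messages are processed and transcribed by a dedicated set of factors. Of 22 genes of histone pre-mRNA processing and transcription, 21 were tested and edgeR called 0 in any treatment against control, with 0, 3 and 6 at an unadjusted p under 0.05 for SB525334, KN046 and combination. Of all genes, 4.07% were higher and 14.9% lower at that p for SB525334, 10.6% and 12.5% for KN046, and 8% and 14.1% for combination. Slbp, which encodes the stem-loop binding protein, lay at 62.5 to 72.0 CPM in control and 63.9 to 77.3 CPM in combination mice (log2 fold change 0.09, edgeR adjusted p = 0.564). Npat, the coactivator of histone gene transcription, lay at 38.4 to 47.5 and 36.6 to 43.4 CPM (log2 fold change -0.09, edgeR adjusted p = 0.744). The levels of both overlapped between the groups.

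Between combination and KN046, 1 gene of that list was higher and 1 lower, against 9.89% and 14.5% of all genes. They were Lsm10 (log2 fold change 0.83, edgeR adjusted p = 0.00287) and Pou2f1 (-0.71, edgeR adjusted p = 0.0150). Lsm10 encodes a protein of the U7 particle that cuts histone pre-mRNA, and Pou2f1 the octamer-binding factor OCT1. The 30 genes of S phase and DNA replication were all tested, and edgeR called 0 in any treatment against control, with 3, 5 and 2 at an unadjusted p under 0.05. The shares of all genes at that p are those given above beside the processing genes. For SB525334, KN046 and combination in turn, 27, 17 and 25 of these 30 genes were above 0, with medians of 0.12, 0.09 and 0.10, against 50.1%, 46.7% and 51.7% of all genes. Pcna, the sliding clamp of DNA polymerase, was at 79.8 to 121 CPM in control and 89.9 to 131 CPM in combination mice (log2 fold change 0.19, edgeR adjusted p = 0.504).

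Of 20 genes of G2 and M phase, edgeR called 3 lower and 0 higher between combination and control, against 9.74% and 1.37% of all genes. The 3 were Mki67 (log2 fold change -1.37, edgeR adjusted p = 0.0292), Cenpf (-1.09, edgeR adjusted p = 0.0301) and Cenpe (-1.26, edgeR adjusted p = 0.0433). Mki67, a marker of cycling cells, was at 524, 547, 210 and 192 CPM in control mice and at 265, 98.1, 62.2 and 143 CPM in combination mice. Control mice 1 and 2 stood above control mice 3 and 4, and combination mouse 1 was above control mice 3 and 4. The median over the 20 genes was 0.02.

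Of 14 replacement and variant histone genes outside the symbol rule, 9 were tested. For SB525334, KN046 and combination, edgeR called 0, 1 and 1 higher than control, against 0.394%, 1.6% and 1.37% of all genes, and 0 lower. Above 0 were 8, 4 and 8 of the 9, with medians of 0.19, -0.01 and 0.23. Between combination and KN046 3 were higher and 0 lower, against 9.89% and 14.5% of all genes. H3f3b, a source of the replication-independent H3.3, was higher in KN046 than in control (log2 fold change 0.86, edgeR adjusted p = 0.0439). H2az2, a gene of the variant H2A.Z, was higher in combination than in control (log2 fold change 0.46, edgeR adjusted p = 0.0421). H3f3a, the other H3.3 gene, was at 0.40 between combination and control (edgeR adjusted p = 0.0911). Of the 16 histone chaperone genes, all tested, edgeR called 0 in any treatment against control, with 2, 4 and 2 at an unadjusted p under 0.05. The shares of all genes at that p are again those given beside the processing genes. Between combination and KN046 2 of these were higher and 2 lower, against 9.89% and 14.5% of all genes. Atrx (-0.87, edgeR adjusted p = 0.0107) and Hjurp (-0.51, edgeR adjusted p = 0.0256) were the lower ones, and Asf1b (0.53, edgeR adjusted p = 0.0192) was one of the higher ones.

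Markers of liver cells differed between the groups. Of all genes, edgeR called 0.394% higher and 9.22% lower in SB525334 than in control. These shares were 1.6% and 2.4% in KN046 and 1.37% and 9.74% in the combination. The 15 hepatocyte markers summed to 18029 to 21209 CPM in control mice, 676 to 2449 in SB525334, 10801 to 22870 in KN046 and 72.7 to 94.4 in combination mice, and 15 of 15 were lower than control in SB525334 and in combination mice, with none at 0. Kupffer cell markers, 5 of 5 lower in both, summed to 162 to 331 CPM in control, 9.56 to 24.3 in SB525334, 52.6 to 392 in KN046 and 1.47 to 12.4 in combination mice, with none at 0. The 4 epithelial markers summed to 123 to 230 CPM in control, 19.4 to 40.2 in SB525334, 101 to 171 in KN046 and 1.26 to 4.97 in combination mice, with 3 of 4 lower in the combination and 2 of 4 in SB525334.

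Epithelial and hepatocyte markers were thus both lowest in the combination tumors. Which cells carried the epithelial markers was not tested. Fibroblast markers summed to 7606 to 8311 CPM in control and 6323 to 11704 in combination mice, with 1 of 7 lower. The 7 neutrophil markers summed to 198 to 213 CPM in control, 7.68 to 17.3 in SB525334, 15.95 to 25.9 in KN046 and 4.803 to 268 CPM in combination mice, with 7, 3 and 1 of 7 lower than control. Endothelial markers, 5 of 5 lower in SB525334 and 2 of 5 in the combination with none at 0, summed to 110 to 234 CPM in control, 50.9 to 88.2 in SB525334, 143 to 202 in KN046 and 93.7 to 111 in combination mice. Liver sinusoidal endothelial markers summed to 121 to 228 CPM in control, 97.6 to 122 in SB525334, 130 to 184 in KN046 and 106 to 146 in combination mice. Of these 5 markers, 3 were lower in the combination and 4 in SB525334, and 1 was higher in KN046. B cell markers, 2 of 5 higher in the combination, summed to 1.57 to 4.21 CPM in control and 2.07 to 54.6 in combination mice. T cell markers, 4 of 5 lower in KN046, summed to 24.7 to 31.5 CPM in control, 5.64 to 16.7 in KN046 and 20.3 to 42.0 in combination mice. None of the T cell markers was called between combination and control. Between combination and KN046, 5 of 5 T cell markers were higher, against 9.89% of all genes. The part of cell content in the histone gene levels was not tested.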

How the data were processed

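RNA-seq libraries of 16 mice, 4 per group, were analysed as grouped by the treatment labels. Per the labels and methods, the authors used Cutadapt 2.7 for trimming, HISAT2 2.2.1 for alignment to GRCm39 and HTSeq 2.0.4 for counting by gene. They deposited raw counts per gene, and normalized values, carried here as a score, which are the counts after division by size factors from DESeq2 and rounding. Strand and multiple-alignment settings are not given in the sources used here. Totals per mouse lay between 18368994 and 23877131, and limits from counts cover counting error only.

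Counts were fitted with edgeR 4.0.16 under R 4.3.3 (scaling by TMM, a filterByExpr minimum of 10 counts, the quasi-likelihood test over the 4 groups, Benjamini-Hochberg adjustment over all 13968 genes tested, threshold 0.05), after testing the script on simulated data. CPM used the TMM scaling. Symbols came from GENCODE M39, which held 21770 of the 21959 identifiers. The rule also matched 3 pseudogenes not analysed here. Sequences were read from the GRCm39 genome. Alternatives were DESeq2 1.42.0, limma 3.58.1, other scalings and filters, the 8 mice of a comparison alone, the replicate number as a block, merged control pairs, the study's thresholds and each mouse left out.

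Members and gene lists were chosen with earlier results of these data known. Genes were named by a rule: H3c10, its nearest members, called members, the 6 highest, the 3 largest and smallest fold changes per treatment, the 3 most like H3c10, H1f0, H1f10 and at most 3 genes of each other list, with Slbp, Npat, Mki67 and Pcna. Other genes were named after their values were seen. The labels call the mice separate samples and do not say more of their independence.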

Additional observations from a re-analysis of the deposited data

Results flagged for a closer look

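Of 88 groups of 4 mice checked over the named members and the summed levels, 4 held a mouse whose distance from its nearest neighbour took up more of the group's range than Dixon's critical value at 95% allows. About 1 in 20 such groups is marked by chance, or 4.4 of 88. H1f5 stood at 1.37 CPM in control mouse 3, the highest of its group, and at 0.603 CPM in SB525334 mouse 4, the lowest of its group. H1f0 stood at 650 CPM in combination mouse 1, below the other combination mice, and still above every control mouse. The summed H3 genes reached 12.6 CPM in combination mouse 2, above the other 3. KN046 mouse 1, which held the highest levels of H1f2, H1f0 and H1f5 among the 16 mice, was not marked, since the KN046 mice were spread widely. No member was called in the interaction.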

How the results depend on the processing

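H3c10 kept its direction between combination and control under every alternative that tested it, with a log2 fold change from 1.03 to 1.63 with 1 mouse left out and from 1.30 to 1.33 otherwise, and passed the threshold in none (adjusted p from 0.0857 to 0.363). The filter of at least 1 CPM, and the 8 mice alone, left it untested. It changed sign between SB525334 and control without control mouse 2 (-0.03) and without SB525334 mouse 2 (-0.22). Called members between KN046 and control were 1 in the fit reported, 2 with DESeq2 and 4 with the study's thresholds. They were 0 with library totals, with the 8 mice alone, with merged control pairs and with limma, and 0 to 5 with 1 mouse left out. Between combination and control they were 1 with DESeq2, with library totals and with no filter, 2 (H1f2 and H1f0) with the 8 mice alone and 2 with the study's thresholds, and 0 to 1 with 1 mouse left out, where the 1 was H4c9 without combination mouse 1. Between combination and KN046 they were 0 with the study's thresholds and 1 to 2 with 1 mouse left out, where H2bc8 was the added gene without KN046 mouse 2 and H3c15 without KN046 mouse 1 or combination mouse 1. Between combination and SB525334 they were 4 with the study's thresholds. For most of these alternatives the share of all genes called is not given, so their member counts cannot be set against a background. The cause of the differences between alternatives was not tested, apart from the fewer mice or genes of some of them.

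With 1 mouse left out, the median log2 fold change ran from 0.19 to 0.62 for KN046 against control, from -0.17 to 0.34 for combination against KN046, from -0.10 to 0.43 for the interaction and from 0.34 to 0.56 for combination against control. The first was 0.62 and the second -0.17 without KN046 mouse 2, and the second was 0.34 and the interaction 0.43 without KN046 mouse 3. The second was also below 0 without combination mouse 2 (-0.11) and with the filter of at least 1 CPM (-0.08). Same-numbered mice had correlations from -0.370 to 0.407, and 6 of 16 correlated best with their own number, so the numbers were not used as pairs. With the replicate number as a block, 1 member was called between KN046 and control and 1 between combination and KN046, 0 elsewhere, and H3c10 between combination and control was at 1.32 (edgeR adjusted p = 0.171). Counts under about 10 in a mouse, as for H3c10 and most members, limit what these libraries can show.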
